A study of Mus musculus with 6 samples.

Results

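The genes described here encode the enzymes that carry glucose to pyruvate, pyruvate to lactate, and pyruvate into the mitochondrion as acetyl-CoA, with the isozymes that male germ cells use in place of the common forms. The 32 members were chosen by name, from hexokinase to the subunits of the pyruvate dehydrogenase complex, and all 32 were found among the 38715 genes of the deposited table. The samples were 6 libraries of whole mouse testis RNA, 3 titled Control and 3 titled Middle. The design text names a control and a MES-exposed group and the title places that exposure early in life; Middle was taken to be the exposed group. MES is not spelled out there, and no source used here gives the strain, genotype, age, dose or route for either group.

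Glycolysis splits glucose into pyruvate and yields ATP without oxygen, and in the sperm tail it takes place along the principal piece, away from the mitochondria, on enzymes bound to the fibrous sheath. Several of its steps are taken over in meiotic and post-meiotic germ cells by isozymes encoded by separate genes. Some of these are retrogenes, intronless copies made from the messenger RNA of the common gene, and the copies of X-linked genes can be transcribed in spermatocytes while the X chromosome is silenced. Sertoli cells, the somatic nurse cells of the tubule, make lactate that spermatocytes and round spermatids take up.

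Levels are in RPKM, reads per kilobase of gene length and per 1e6 reads, computed by the authors for each library. Reads summed over genes ran from 38820385 to 58389391 per library. Middle replicate 1 stood apart from the other libraries. Its reads differed from those of Middle replicates 2 and 3 with a chi-square per degree of freedom of 31.2 and 22.5, against 5.85 to 10.1 for the other pairs within a group, and the rank correlation of its deviation with transcript GC content was 0.446 against -0.294 to 0.028 in the other 5 libraries. These correlations were -0.294 to -0.216 in Control and -0.0706 to 0.446 in Middle, so GC bias and group cannot be told apart. Several of the differences below are also given without this library. Germ cell, Sertoli cell and Leydig cell markers were above 0 in every library, but so were the skeletal muscle and macrophage markers, so presence alone does not identify the tissue. The summed level of 10 elongating spermatid markers was 28291 RPKM or more in every library, and that of 8 skeletal muscle markers was at most 7.07.

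Germ cell isozymes held most of the RNA at several steps, in Control and Middle alike. Gapdhs, the glyceraldehyde-3-phosphate dehydrogenase of sperm, made up 97.9% to 98.8% of the RPKM summed over its step, Pgk2 98.1% to 98.7% of phosphoglycerate kinase, and Pdha2 98.1% to 99.0% of the E1 alpha subunit of pyruvate dehydrogenase. Pgam2, known as the muscle form of phosphoglycerate mutase, made up 99.5% to 99.6% of its step. It was not listed as a germ cell isozyme, so it counts with the other members below and was not compared as a pair with Pgam1. Ldhc, the lactate dehydrogenase of germ cells, held 64.2% to 66.7% of its step, Ldhal6b 24.3% to 26.6%, Ldha 6.93% to 7.16% and Ldhb 1.79% to 2.25%. At the aldolase step Aldoart2 held 45.8% to 49.3%, the common Aldoa 37.6% to 42.2% and Aldoart1 10.3% to 13.3%. The common enolase gene Eno1 kept 62.3% to 66.9% of its step, above Eno4 with 24.4% to 26.8%. The hexokinase and phosphofructokinase steps have no separate germ cell gene in the list. Hk1 held 98.0% to 98.6% of the former and Pfkm 71.3% to 72.7% of the latter.

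**Figure D1:**
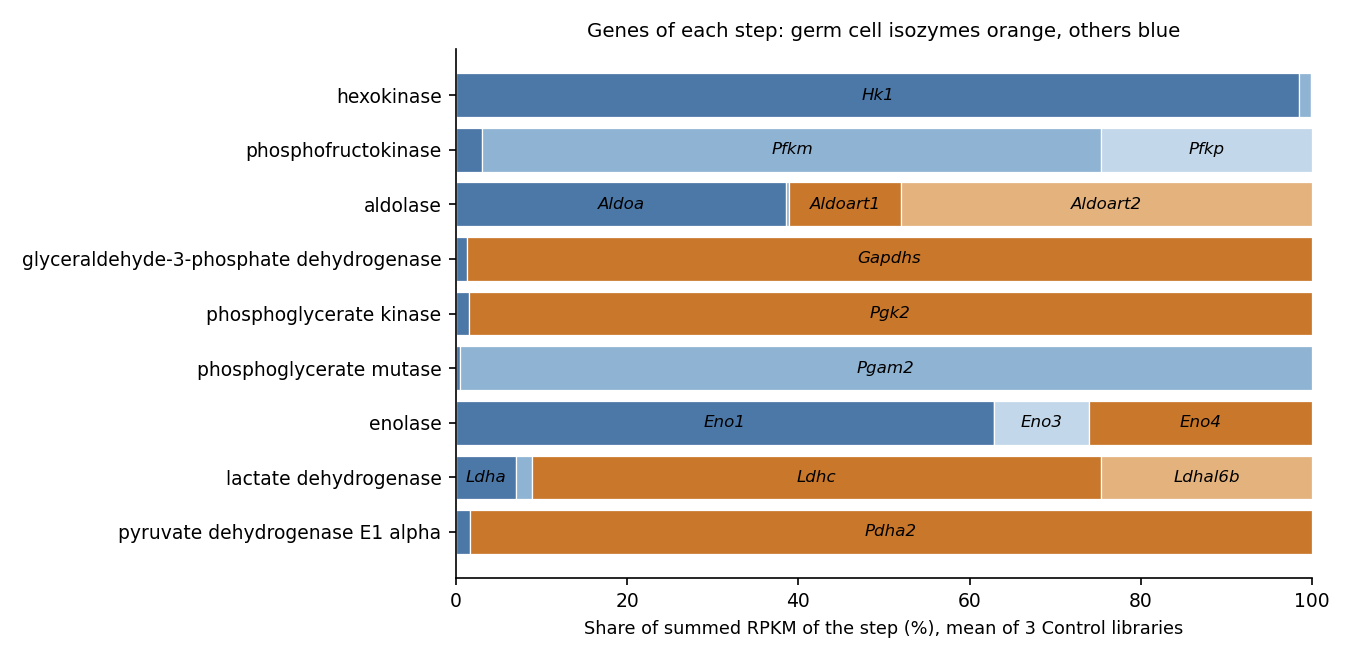
Share of each gene in the RPKM summed over the genes of a step (x axis, percent, mean of the 3 Control libraries; y axis, the step). Orange segments are germ cell isozymes and blue segments the other genes; Gapdhs takes 98.7%, Pgk2 98.5% and Pdha2 98.4% of their steps, while Aldoa keeps 38.6% and Eno1 62.8%.

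Pgam2 and Ldhc ranked 21 and 22 of the 38715 genes by mean RPKM. Skeletal muscle markers were low beside Pgam2. The summed level of the 8 muscle markers lay at 5.42 to 6.15 RPKM in Control and 6.07 to 7.07 in Middle, and Ckm, the creatine kinase of muscle, was at 0.217 to 0.354 RPKM. Of the other members Hk1, Gapdhs, Pgk2, Ldhal6b, Ldha, Tpi1 and Aldoart2 were at 92.5 RPKM or more in every library, and Eno2, the neuronal enolase, was the lowest at 0.0109 to 0.0456 RPKM. RPKM divides by a gene length that counts every annotated exon. Gapdh has 4133 bases in the table and Gapdhs 1610, so a gene with many unused exon bases reads low against its paralog, and the shares above carry this limit. They also leave out the copies of Gapdh and Eno1 described below. The Gapdh copy Gm6981 averaged 33.5 RPKM over all libraries, against 10.2 for Gapdh itself. The share of Ldhal6b rests on reads that cannot be told apart from those of Gm29050 on the opposite strand.

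**Figure D2:**
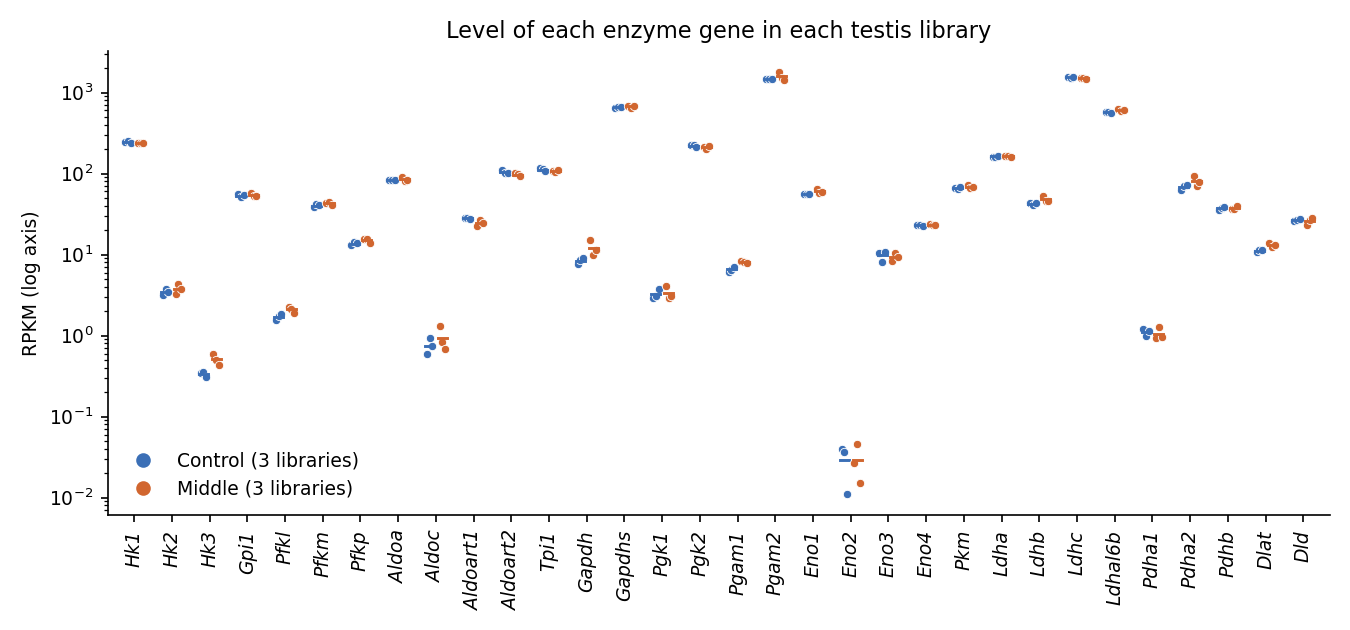
RPKM (log axis) of the 32 genes in pathway order, with 1 point for each of 3 Control and 3 Middle libraries and a bar at the mean of each group. The genes span from Eno2, at most 0.0456, to Pgam2, at most 1798, and most genes shift little between the groups on this scale.

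No enzyme gene passed the test of Middle against Control. Only genes averaging 1 RPKM or more in either group were tested, which 29 of the 32 members did. Hk3, Aldoc and Eno2 did not. The test called 0 of the 29 members (adjusted p 0.178 to 0.921, limma), against 8 of 15040 genes in all, or 0.0532%. The count over all genes was 0 to 3 when any 1 of the 6 libraries was left out. An unadjusted p under 0.05 was reached by 5 of the 29 members (17.2%), where 20.7% of all tested genes reached it. limma-voom on the recovered reads called 0 of 32 members and 0.109% of all genes it tested, and an unadjusted p under 0.05 was reached by 6 of the 32, against 17.1% of all. The median log2 fold change of the 29 members was 0.04, against 0.03 over all tested genes, with 20 above 0 and 9 below. With the GC trend removed the members above 0 were 15, and with upper-quartile scaling 16. In whole testis, fewer cells of a type and less RNA per cell cannot be told apart. Each fold change was computed from log2(RPKM + 1), which understates the change of low genes.

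Of the 29 tested members 7 had every Middle library above every Control library, and 2 had every one below. These were Pfkl, Gapdh, Pgam1, Eno1, Ldhb, Ldhal6b and Dlat on the higher side and Aldoart1 and Ldhc on the lower. As shares of the 29 these are 24.1% and 6.90%, beside 17.9% of all tested genes that lay higher without overlap and 11.4% that lay lower. The 95% intervals of the differences reached from -22.3% for Aldoart1 to 72.5% for Gapdh at their outer ends, on the same scale. For most of the abundant enzymes they were far narrower, as the values below show. Nothing in the labels ties the libraries to separate animals; the p-values therefore reflect library-to-library spread, which may be technical.

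**Figure D3:**
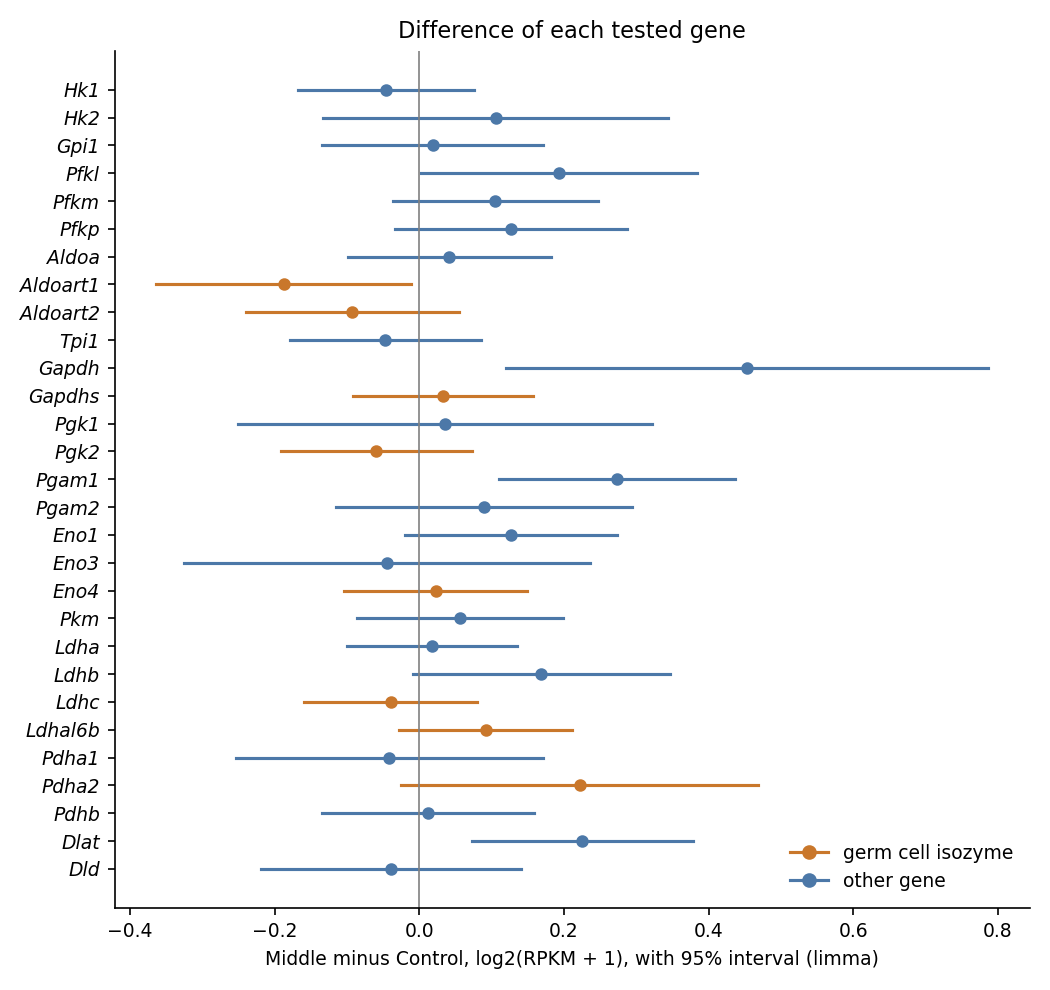
Middle minus Control in log2(RPKM + 1) for the 29 tested genes (x axis), in pathway order (y axis), with the 95% interval of limma. Orange marks the 8 germ cell isozymes and blue the others; Gapdh and Pgam1 lie farthest to the right, Aldoart1 farthest to the left, and no gene passed after adjustment over all genes.

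The glyceraldehyde-3-phosphate dehydrogenase step held the largest difference of the 29 tested members on the log2(RPKM + 1) scale. Gapdh (chromosome 6, 125138678 to 125143430, GRCm39), the common form used in nearly all cells, was at 7.68, 8.52 and 9.09 RPKM in Control replicates 1 to 3 and at 15.1, 9.80 and 11.3 in Middle replicates 1 to 3. Every Middle value lay above every Control value, and Middle replicate 1 was the highest by a wide step. The ratio of means was 1.43 and the log2 fold change 0.45 (SE 0.14, adjusted p = 0.18, limma). Without Middle replicate 1 the log2 fold change was 0.29 (adjusted p = 0.235, limma). Gapdhs (chromosome 7, 30429200 to 30443106), which is bound to the fibrous sheath and is needed for sperm motility, was at 645, 665 and 662 RPKM in Control and 690.0, 649 and 680.2 in Middle. The groups overlapped, and the difference of 0.03 had a 95% interval of -0.09 to 0.16.

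Within each library the ratio of Gapdhs to Gapdh does not depend on how libraries are scaled. It was 84.1, 78.1 and 72.8 in Control and 45.6, 66.2 and 60.3 in Middle, so each Middle library had a lower ratio than each Control library. The means were 78.3 ± 5.63 and 57.4 ± 10.6 (SD, n = 3 per group), a difference of -0.46 in log2 (exact permutation test, two-sided, p = 0.1, the smallest that 3 against 3 can give; 0.16 adjusted over the 8 pairs compared). It was -0.31 without Middle replicate 1 and -0.44 with the GC trend removed. Transcripts of 41 other genes match the Gapdh transcript at 97% identity or more over at least 200 bases, and they held 25.1% as many reads as Gapdh itself. The split of reads between Gapdh and these copies is therefore uncertain. With the reads of the copies added to Gapdh, a choice made after seeing the data, the ratio was 63.4, 60.6 and 56.4 in Control and 37.97, 53.4 and 49.7 in Middle, still without overlap. A further copy, Gm6981, matches at 95.3% and held 10175 reads over all libraries against 12692 for Gapdh; it was not added. Gapdhs shares 188 and 162 exonic bases with Gm57241 and Tmem147os on the opposite strand, whose reads are not told apart from it.

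Phosphoglycerate kinase, the first step that makes ATP, showed the X-linked gene and its autosomal retrogene side by side. Pgk1 (chromosome X, 105230706 to 105247305) has 11 exon blocks in the table, and Pgk2 (chromosome 17, 40517906 to 40519531) is 1 unbroken block that matches the Pgk1 transcript at 79.5% of 1251 aligned bases. The same holds for Pdha1 (chromosome X, 158905205 to 158921409, 12 blocks) and Pdha2 (chromosome 3, 140915765 to 140918116, 1 block, 75.9% of 1181 bases). Of the 8 germ cell isozymes 5 are single blocks (Aldoart1, Aldoart2, Pgk2, Ldhal6b and Pdha2) and 0 lie on the X chromosome, while 2 of their 6 common paralogs do. The promoters of both pairs are printed to show how unlike the copies are to their parents in the bases around the start, although the copies hold nearly all of the step's RNA here. Each window runs from 250 bases before to 50 after the start (RefSeq, GRCm38.p6, a different build from that of the table), 5′ to 3′ on the gene's strand, with every CG dinucleotide in capitals.
Pgk1: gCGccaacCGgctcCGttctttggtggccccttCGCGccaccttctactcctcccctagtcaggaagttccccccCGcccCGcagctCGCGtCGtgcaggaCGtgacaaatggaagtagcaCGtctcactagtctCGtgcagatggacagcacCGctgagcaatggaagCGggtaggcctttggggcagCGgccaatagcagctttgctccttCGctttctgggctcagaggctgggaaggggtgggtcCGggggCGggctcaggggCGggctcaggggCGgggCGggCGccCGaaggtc
Pgk2: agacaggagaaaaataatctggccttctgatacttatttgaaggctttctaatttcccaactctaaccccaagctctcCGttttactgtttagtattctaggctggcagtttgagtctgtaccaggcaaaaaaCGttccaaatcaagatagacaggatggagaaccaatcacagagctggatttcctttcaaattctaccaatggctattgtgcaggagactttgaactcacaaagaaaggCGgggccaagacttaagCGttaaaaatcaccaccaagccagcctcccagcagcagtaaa
Pdha1: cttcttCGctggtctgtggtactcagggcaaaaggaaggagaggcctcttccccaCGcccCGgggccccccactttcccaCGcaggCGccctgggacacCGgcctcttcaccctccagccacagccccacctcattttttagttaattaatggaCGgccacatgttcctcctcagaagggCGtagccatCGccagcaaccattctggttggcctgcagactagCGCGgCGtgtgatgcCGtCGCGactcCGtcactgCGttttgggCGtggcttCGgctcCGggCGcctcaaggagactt
Pdha2: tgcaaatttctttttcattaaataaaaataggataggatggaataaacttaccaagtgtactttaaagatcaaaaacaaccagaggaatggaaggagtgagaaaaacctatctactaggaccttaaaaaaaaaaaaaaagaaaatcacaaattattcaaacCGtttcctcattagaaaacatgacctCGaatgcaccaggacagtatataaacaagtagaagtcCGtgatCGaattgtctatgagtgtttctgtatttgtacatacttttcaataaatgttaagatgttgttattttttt
These windows are chrX:106186850-106187149 (+ strand) for Pgk1, chr17:40208560-40208859 (- strand) for Pgk2, chrX:160138381-160138680 (- strand) for Pdha1 and chr3:141212306-141212605 (- strand) for Pdha2. Pgk1 has 24 CG dinucleotides and 66.7% G and C, and Pgk2 has 4 and 43%. Pdha1 has 21 and 62%, and Pdha2 has 4 and 29.7%. CG, which reads the same on both strands, is present in 94.6% of the 32851 windows of this length in the reference, with a median of 7. The windows of Pgk1 and Pdha1 hold more CG than 80.0% and 75.2% of all windows, and those of Pgk2 and Pdha2 more than 31.4% each. These counts describe the sequence only.

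Neither member of the Pgk pair differed beyond its spread between the groups. Pgk2 was at 224, 226 and 215 RPKM in Control and 215, 204 and 219.7 in Middle, with overlap, and its difference of -0.06 had a 95% interval of -0.19 to 0.07. Pgk1 was at 2.90, 3.06 and 3.80 RPKM in Control and 4.08, 2.93 and 3.10 in Middle, on 307 to 434 reads per library. Middle replicate 1 was the highest of all 6 libraries for Pgk1, and Control replicate 3 came next. The ratio of Pgk2 to Pgk1 was 77.2, 73.7 and 56.6 in Control and 52.5, 69.4 and 71.0 in Middle, so the groups overlapped (log2 difference -0.10, exact permutation p = 0.5, two-sided, 0.5 adjusted). The sign turned to 0.03 without Middle replicate 1.

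**Figure D4:**
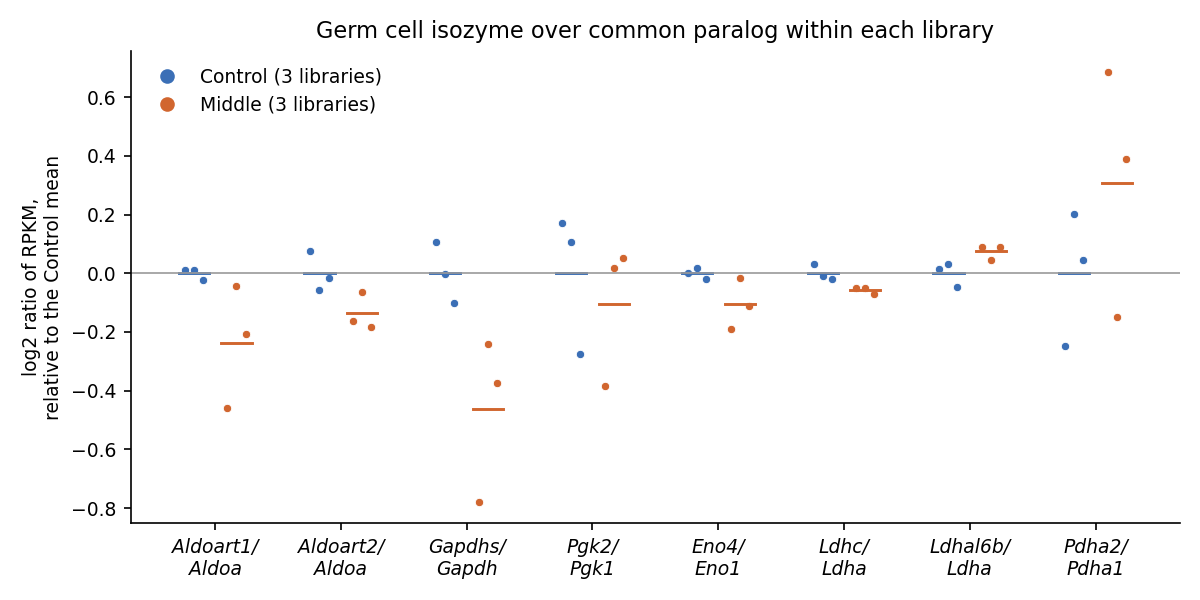
Ratio of germ cell isozyme to common paralog in each library, as log2 relative to the mean of the Control libraries (y axis), for 8 pairs (x axis), with 1 point per library and a bar at each group mean. The 3 Middle libraries lie below the Control libraries for Aldoart1, Aldoart2, Gapdhs and Ldhc and above them for Ldhal6b, and Middle replicate 1, the leftmost Middle point, lies far out for Aldoart1, Gapdhs and Pdha2.

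The retrogenes of aldolase, which splits fructose bisphosphate into 2 trioses, lay lower in Middle relative to the common gene. Aldoart1 (chromosome 4, 72768820 to 72770871) was at 28.3, 28.5 and 27.3 RPKM in Control and 22.3, 26.7 and 24.6 in Middle. All Middle values were below all Control values, with a log2 fold change of -0.19 (SE 0.08, adjusted p = 0.227, limma) and -0.12 without Middle replicate 1. Aldoart2 (chromosome 12, 55612024 to 55613681) was at 109, 100.2 and 101 RPKM in Control and 101, 97.3 and 92.5 in Middle, where the groups overlapped through 1 Middle library. Aldoa (chromosome 7, 126394406 to 126408280), which also serves muscle and red blood cells, was at 83.3, 83.8 and 82.1 RPKM in Control and 90.8, 81.6 and 84.3 in Middle. Middle replicate 1 held both the highest Aldoa and the lowest Aldoart1.

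The ratio of Aldoart1 to Aldoa was 0.339, 0.340 and 0.332 in Control and 0.245, 0.327 and 0.292 in Middle. That of Aldoart2 to Aldoa was 1.31, 1.20 and 1.23 in Control and 1.11, 1.19 and 1.10 in Middle. Neither overlapped between the groups (log2 differences -0.24 and -0.14, exact permutation p = 0.1 each, two-sided, the smallest possible; 0.16 each adjusted over the 8 pairs). For Aldoart1 the difference was -0.13 without Middle replicate 1. With the trend of each library on GC content removed, the differences were -0.14 and -0.11 (exact permutation p = 0.3 and 0.2). The retrogenes match the Aldoa transcript at 92.6% of 1510 and 89.5% of 1309 aligned bases, the closest of the 7 pairs that aligned.

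The lactate dehydrogenases interconvert pyruvate and lactate, and their germ cell members differed in sign. Ldhc (chromosome 7, 46510627 to 46527566), the subunit of the sperm enzyme, lies 5575 bases after the end of Ldha (chromosome 7, 46490899 to 46505051) on the same strand. It was at 1554, 1518 and 1536 RPKM in Control and 1518, 1509.8 and 1457 in Middle. The groups did not overlap, but the nearest libraries were less than 1 RPKM apart, and the difference of -0.04 (adjusted p = 0.663, limma) had a 95% interval of -0.16 to 0.08. Ldha, the form that favours lactate, was at 161, 162 and 165 RPKM in Control and 166, 165 and 162 in Middle, with overlap. The ratio of Ldhc to Ldha was 9.64, 9.38 and 9.31 in Control and 9.12, 9.13 and 8.98 in Middle, a small difference of -0.06 in log2 with no overlap of the groups (exact permutation p = 0.1, two-sided, 0.16 adjusted over the pairs). With the GC trend removed it was -0.01 (exact permutation p = 0.7).

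Ldhal6b (chromosome 17, 5467598 to 5469042), an intronless relative of Ldha, lay on the other side. It was at 569.7, 578 and 559 RPKM in Control and 619, 597 and 604 in Middle, without overlap (0.09, 95% interval -0.03 to 0.21, adjusted p = 0.326, limma). Its ratio to Ldha was 3.53, 3.57 and 3.39 in Control and 3.72, 3.61 and 3.72 in Middle (log2 difference 0.07, exact permutation p = 0.1, two-sided, 0.16 adjusted). All 1445 bases of Ldhal6b lie in an exon of Gm29050 on the opposite strand, and Gm29050 held only 20 to 36 more reads than Ldhal6b in each library, of 31353 to 49215. The reads of Ldhal6b and Gm29050 cannot be told apart from the table. Ldhb, the form of heart and other oxidative tissues, was at 43.7, 41.1 and 42.7 RPKM in Control and 53.1, 45.2 and 45.6 in Middle, without overlap and highest in Middle replicate 1 (0.17, adjusted p = 0.256, limma). Its difference was 0.09 without that library.

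Pyruvate dehydrogenase turns pyruvate into acetyl-CoA in the mitochondrion. Its germ cell subunit gene Pdha2 was at 62.9, 70.5 and 72.3 RPKM in Control and 92.8, 70.5 and 78.1 in Middle. Middle replicate 1 was the highest by far, while Middle replicate 2 lay within the Control range, and the difference was 0.22 (SE 0.11, adjusted p = 0.272, limma). Without Middle replicate 1 it was 0.12. Pdha1 was at 1.21, 0.991 and 1.13 RPKM in Control and 0.933, 1.26 and 0.963 in Middle, on 164 to 241 reads per library, just above the level needed for testing. It shares 603 exonic bases, 16.15% of its length, with Map3k15 on the opposite strand, and reads there may not be told apart. The ratio of Pdha2 to Pdha1 was 52.1, 71.2 and 63.9 in Control and 99.4, 55.8 and 81.1 in Middle, and the groups overlapped (log2 difference 0.31, exact permutation p = 0.4, two-sided, 0.457 adjusted). It was 0.12 without Middle replicate 1.

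The other subunits of the complex have no germ cell isozyme in the list. Dlat, the E2 subunit that carries the lipoyl arm, was at 10.7, 11.4 and 11.3 RPKM in Control and 13.9, 12.5 and 13.2 in Middle. All Middle libraries were above all Control libraries, the difference was 0.23 (SE 0.07, 95% interval 0.07 to 0.38), and it did not pass (adjusted p = 0.178, limma). It was 0.19 to 0.26 over the 14 alternatives. Pdhb, the E1 beta subunit, averaged 37.2 ± 1.27 and 37.5 ± 1.93 RPKM, and Dld, the E3 subunit shared with other dehydrogenases, 26.6 ± 0.523 and 25.9 ± 2.41 (SD, n = 3 per group; Control first). Both overlapped. Dlat was thus the only 1 of the 5 pyruvate dehydrogenase members with groups apart (20%), a share not above the 29.3% of all tested genes.

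Of the lower glycolytic genes, Pgam1 stood out beside Gapdh. Pgam1 (chromosome 19, 41900362 to 41907099), the common phosphoglycerate mutase, was at 6.14, 6.48 and 6.99 RPKM in Control and 8.40, 8.11 and 7.80 in Middle. No Middle library reached down to the Control range, and the difference of 0.27 (SE 0.07, 95% interval 0.11 to 0.44) had an adjusted p of 0.178 (limma). It ranged from 0.22 to 0.32 over the 14 alternatives. A copy of the gene, Pgam1-ps2, with an identical stretch of 765 bases, held 13.2% as many reads, so the split of reads between them is uncertain. Pgam2 (chromosome 11, 5751640 to 5753733) was at 1478, 1475 and 1480.3 RPKM in Control, within 6 RPKM of each other, and 1798, 1520.5 and 1421 in Middle. Middle replicate 1 was the highest, the other Middle libraries also lay outside the narrow Control range on either side, and the difference of 0.09 turned to -0.01 without it.

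Enolase makes phosphoenolpyruvate. Eno1 (chromosome 4, 150321178 to 150333336) was at 55.6, 55.2 and 55.1 RPKM in Control and 64.6, 57.1 and 59.8 in Middle, without overlap (0.13, SE 0.06, adjusted p = 0.284, limma). The difference was 0.08 without Middle replicate 1 and 0.04 with the GC trend removed. Its near-identical copies Eno1b and Gm4735 held 11.5% as many reads. Eno4 (chromosome 19, 58931857 to 58959853), an enolase of the sperm tail, was at 23.1, 23.2 and 22.6 RPKM in Control and 23.5, 23.5 and 23.0 in Middle, with overlap and a difference of 0.02 (95% interval -0.10 to 0.15). The ratio of Eno4 to Eno1 was 0.415, 0.420 and 0.410 in Control and 0.364, 0.411 and 0.384 in Middle, overlapping through Middle replicate 2 (log2 difference -0.10, exact permutation p = 0.2, two-sided, 0.267 adjusted). Without Middle replicate 1 it was -0.06. The muscle enolase Eno3 averaged 9.74 ± 1.53 and 9.38 ± 0.988 RPKM (SD, n = 3 per group; Control first), and the groups overlapped.

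The upper steps held 1 tested gene with groups apart besides Aldoart1. Hk1 (chromosome 10, 62104634 to 62215687), the hexokinase that phosphorylates glucose and that germ cells make in forms of their own from the same gene, was at 247, 249.7 and 237 RPKM in Control and 235, 235 and 240.4 in Middle (-0.05, 95% interval -0.17 to 0.08). The table counts per gene, so the germ cell forms are not told apart from the common form. Pfkl, the liver form of the rate-limiting phosphofructokinase, was at 1.54, 1.75 and 1.83 RPKM in Control and 2.26, 2.14 and 1.89 in Middle, all Middle above all Control (0.19, adjusted p = 0.239, limma), and 0.11 with the GC trend removed. Pfkm and Pfkp, the muscle and platelet forms, averaged 40.2 ± 1.46 and 13.7 ± 0.663 RPKM in Control libraries against 43.3 ± 1.72 and 15.0 ± 0.814 in Middle ones (SD, n = 3 per group), with overlap.

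Hk2, an inducible hexokinase, and the isomerases Gpi1 and Tpi1 had differences of 0.11, 0.02 and -0.05, and Pkm, the pyruvate kinase gene, 0.06. None of these 4 had groups apart. The value for Hk2 became 0.06 when Control replicate 1 was left out, 0.19 when Middle replicate 1 was and 0.02 when Middle replicate 2 was, and that for Pkm became 0.02 when Middle replicate 1 was. Of the 3 members too low for the test, Hk3, a hexokinase of blood cells, was at 0.345, 0.354 and 0.308 RPKM in Control and 0.591, 0.495 and 0.438 in Middle, all Middle above all Control on 44 to 103 reads. Aldoc, the brain aldolase, was at 0.585, 0.924 and 0.742 RPKM across Control and 1.32, 0.841 and 0.673 across Middle, and Eno2 held 2 to 10 reads per library. Both overlapped.

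Across the pairs, 4 of the 8 ratios lay lower in Middle without overlap (Aldoart1, Aldoart2, Gapdhs and Ldhc over their paralogs), 1 lay higher (Ldhal6b) and 3 overlapped. Taken singly, 29.3% of all tested genes had groups apart. The share for ratios of other gene pairs was not computed, so whether these counts are unusual is not known. The pairs with Aldoa share that denominator, as do those with Ldha, and the ratios rest on the same 6 libraries. No p can fall below 0.1 in this design, so none of the pairs could pass. With the GC trend removed, the groups stayed apart for Gapdhs and Ldhal6b over their paralogs and overlapped for the other 3 of these 5. Of the 8 germ cell isozymes alone 4 lay above 0 and 4 below (median -0.01). Of the 21 other tested members 16 lay above 0 (median 0.06), where 55.9% of all tested genes did. The signs on both sides of this contrast depend on the processing. With the GC trend removed, Aldoa, Gpi1, Ldha and Pkm turned below 0 and Dld above it. Of the isozymes, Gapdhs and Eno4 turned below, and only Ldhal6b (0.07) and Pdha2 (0.24) stayed above. In that setting 15 of all 29 tested members lay above 0, a count over both sides together.

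Some lists of cell type markers differed in the same comparison. The summed level of 10 round spermatid markers was 711 to 758 RPKM in Control and 593 to 649.9 in Middle, without overlap, and 5 of the 10 were lower and 0 higher in every Middle library, beside 11.4% and 17.9% of all tested genes. That of 10 elongating spermatid markers was 30063 to 33261 and 28291 to 30804, and that of 10 spermatocyte markers 1904 to 1935 and 1829 to 1937, both with overlap. Taken 1 by 1, 4 of the 10 elongating spermatid markers were lower and 0 higher in every Middle library, beside the same 11.4% and 17.9%. Of the 10 spermatocyte markers 1 was lower and 2 were higher. The 10 Sertoli cell markers summed to 264 to 269.8 RPKM in Control and 281 to 292 in Middle, and 16 ribosomal protein genes to 1149 to 1237 and 1310.1 to 1639, neither with overlap. Singly, 2 of the 10 Sertoli cell markers were higher in every Middle library, a share near the 17.9% of all tested genes, and 13 of the 16 ribosomal protein genes were. Without Middle replicate 1 the ratio of Middle to Control was 0.883 for round spermatids, 1.05 for Sertoli cells and 1.13 for ribosomal proteins. The other lists overlapped, with ratios of 1.21 for spermatogonia, 1.08 for Leydig cells, 1.02 for peritubular cells, 1.08 for macrophages, 1.15 for erythroid cells and 1.18 for the 4 epididymal genes found. Without Middle replicate 1 these were 1.14, 1.06, 0.975, 1.03, 1.03 and 1.02 in the same order. Insl3, at 197 to 240 RPKM over the 6 libraries, held the largest part of the Leydig cell sum. Of the 9 Leydig cell markers 1 was higher (Nr5a1) and 1 was lower (Star) in every Middle library, beside 17.9% and 11.4% of all tested genes. The near-level peritubular sum hid differences between its genes. Of the 8 peritubular markers 4 were higher and 1 was lower in every Middle library, beside 17.9% and 11.4% of all tested genes. The lower one, Actg2, was at 131 to 175 RPKM over the 6 libraries and held the largest part of the sum. No marker was at 0 in every library. The part of these differences in the isozyme ratios was not tested.

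**Figure D5:**
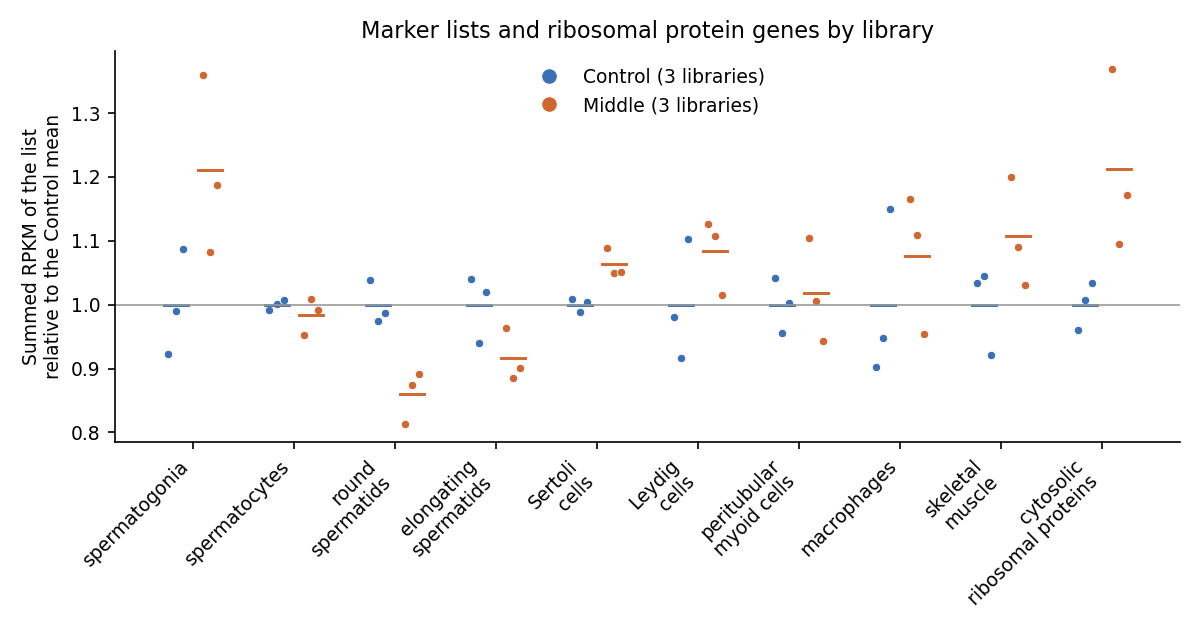
Summed RPKM of each marker list relative to the mean of the Control libraries (y axis) for 10 lists (x axis), with 1 point per library and a bar at each group mean. Round spermatid markers lie below 1 and Sertoli cell markers and ribosomal protein genes above 1 in all 3 Middle libraries, and Middle replicate 1, the leftmost Middle point, is farthest out for spermatogonia, round spermatids and ribosomal proteins.

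Of the 42 tested genes around the pathway limma called 0, with 14 (33.3%) at an unadjusted p under 0.05 beside 20.7% of all tested genes. limma-voom called 0 of 54, with 15 (27.8%) beside 17.1%. Of 8 tested transporters of glucose and monocarboxylates 6 lay above 0 (median 0.06). Slc16a7, a carrier of pyruvate and lactate, was at 15.6, 14.5 and 16.5 RPKM in Control and 10.5, 13.2 and 11.8 in Middle (-0.37, adjusted p = 0.178, limma), and the glucose transporter gene Slc2a8 at 2.74, 2.81 and 2.83 RPKM across Control and 3.51, 3.17 and 3.13 across Middle (0.17). The groups did not overlap for either gene. Transcript GC content was 37.7% for Slc16a7 and 60.8% for Slc2a8, and Middle replicate 1 was the extreme library for both.

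Of 12 tested regulators and side branches 6 lay above 0 and 6 below (median -0.01), with 5 (41.7%) lower without overlap beside 11.4% of all tested genes. Gpd2, the mitochondrial glycerol-3-phosphate dehydrogenase, was at 66.4, 58.7 and 59.2 RPKM in Control and 41.9, 52.1 and 43.0 in Middle, without overlap (-0.42, SE 0.10, adjusted p = 0.178, limma). Its cytosolic partner Gpd1 was at 4.69, 4.58 and 5.45 RPKM across Control and 7.03, 5.36 and 6.73 across Middle, with overlap and the opposite sign (0.32, adjusted p = 0.188, limma). The 2 enzymes form a shuttle that passes electrons from glycolysis to the mitochondrion. Transcript GC content was 46.5% for Gpd2 and 56.9% for Gpd1, and Middle replicate 1 was again the extreme library for both.

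Of 10 tested genes of pyruvate entry and pyruvate dehydrogenase control 7 lay above 0 (median 0.07). Pcx, which carboxylates pyruvate, was at 2.63, 2.67 and 2.72 RPKM in Control and 3.60, 3.62 and 3.11 in Middle (0.27), and Mpc2, a subunit of the mitochondrial pyruvate carrier, at 12.7, 11.5 and 12.5 RPKM across Control and 10.7, 11.2 and 10.2 across Middle (-0.17). Both kept the groups apart, in opposite directions. Transcript GC content was 57.7% for Pcx and 43.2% for Mpc2. For the pentose phosphate genes Taldo1 and Rpia, given next and both higher in Middle, it was 53.6% and 46.5%. The part of GC content in the differences of these pathway genes was not tested. All 10 pentose phosphate genes were tested, 7 above 0 (median 0.17), with Taldo1 at 6.58, 6.07 and 6.73 RPKM across Control and 9.49, 7.84 and 7.48 across Middle and Rpia at 3.08, 3.02 and 3.44 RPKM across Control and 4.16, 3.57 and 3.90 across Middle, both without overlap. Of 6 gluconeogenesis genes 2 were tested: Fbp1, which removes a phosphate from fructose bisphosphate, was at 194, 194 and 191 RPKM across Control and 197, 195 and 193 across Middle, and G6pc3, a glucose-6-phosphatase, at 20.9, 20.9 and 20.5 across Control and 23.8, 20.5 and 22.4 across Middle, with overlap for both.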

How the data were processed

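RNA of whole testis was measured in 6 mouse libraries, grouped by title. The labels' protocols give Trizol extraction of total RNA and an mRNA library kit; the submitters' processing notes list fastp 0.23.0 and the build GRCm39. The aligner, counter, annotation and strandedness: not given in the sources used here. What was deposited is RPKM made by the authors, a unit read from the values: times the gene length in the table, a column of another kind per the file headers, they gave whole reads for 100% of genes (tolerance 0.001).

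The members and gene lists were chosen with earlier results of these data known. The main test was limma 3.58.1 (R 4.3.3) with a trend on log2(RPKM + 1), two-sided, over the 15040 genes that averaged 1 RPKM or more in either group, adjusted by Benjamini-Hochberg over all of them, at a threshold of 0.05. Ratios of 8 isozyme pairs were compared by an exact permutation test over libraries. Alternatives were a pseudocount of 0.1 (for ratios, RPKM + 1), no filter, limma-voom with TMM on the recovered reads, median-of-ratios and upper-quartile scaling, a replicate block, removal of each library's loess trend (span 0.5) on GC content of GENCODE M21 transcripts, which all 32 members and 93.1% of tested genes had, and leaving out each library; adding the reads of copies was chosen after seeing the data. Named with the value of every library were the germ cell isozymes, their paired paralogs, the members with groups apart and the 2 genes of lowest p in each pathway list. Copies were found with blastn 2.17.0, and promoters, from RefSeq, matched 31 of 32 members. Mpc1l, G6pc1 and 4 of 8 epididymal markers had no match in the table. The scripts were tested on simulated data. The 95% intervals cover the spread between libraries only.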

Additional observations from a re-analysis of the deposited data

How the results depend on the processing

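Under the 14 alternatives 0 members passed, and their lowest adjusted p was 0.105 (Gapdh without Middle replicate 2, limma). Over all genes limma called 8. The count was 26 by limma-voom with TMM on recovered reads, 5 with the GC trend removed, and 0 without the filter, with the replicate block, and with the block and GC correction together (4204, 2267 and 2296 genes at an unadjusted p under 0.05). Leaving out Control replicate 1 gave 3, leaving out Middle replicate 1 gave 1, and leaving out any of the other 4 libraries gave 0 (2100 to 3922 at an unadjusted p under 0.05). The deviations of same-numbered libraries had correlations of -0.153, -0.119 and 0.005, and no library correlated best with its own number. Deviations from a mean of 3 libraries depend on each other, so whether the numbers pair the libraries cannot be settled from these values. The block called 0 members, and its exact p for the pair ratios was 0.25 to 0.75 (sign-flip test, smallest possible 0.25). The median of the members stayed between 0.01 and 0.06. Of the 29 tested members 18 kept their sign throughout and 11 did not. With the GC trend removed, with or without the block, Dld was at 0.054, Eno4 at -0.014, Gapdhs at -0.036, Gpi1 at -0.026, Ldha at -0.019, Aldoa at -0.040 and Pkm at -0.030. By limma-voom, median-of-ratios and upper-quartile scaling in turn, Pdhb was at -0.013, -0.0066 and -0.012, Gpi1 at -0.0076, -0.00022 and -0.0056, and Ldha at -0.0089, -0.0017 and -0.0071; Eno4 was at -0.0034 by limma-voom and -0.00045 by upper-quartile scaling. With 1 library left out, Pgam2 ranged from -0.0078 to 0.16, Eno3 from -0.17 to 0.027, Dld from -0.092 to 0.034, Pdhb from -0.029 to 0.037, Gpi1 from -0.030 to 0.045, Aldoa from -0.0013 to 0.075, Pgk1 from -0.078 to 0.13 and the ratio of Pgk2 to Pgk1 from -0.24 to 0.035. The cause was not tested. Depth limits Pdha1 (164 to 241 reads), Hk3 (44 to 103) and Eno2 (2 to 10).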

Other observations

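Glycerol kinase offers a further set of an X-linked gene and autosomal relatives of germ cells, named here after their values were seen. Gk was at 0.0549 to 0.0791 RPKM over the 6 libraries and was not tested. Its relatives Gk2 and Gykl1 were among the abundant genes of the testis. Gk2 averaged 139.9 ± 5.32 RPKM over Control libraries and 127 ± 3.99 over Middle ones, and Gykl1 206 ± 1.91 and 186 ± 4.42 (SD, n = 3 per group). Both lay lower in Middle without overlap, as 11.4% of all tested genes did, with log2 fold changes of -0.14 and -0.15 that did not pass (adjusted p 0.238 and 0.189, limma). Both were lowest in Middle replicate 1, at 123 and 181 RPKM, and their transcripts had 45.2% and 46.6% G and C.

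Transport of glucose and of its products differed widely in level between genes, again named after their values were seen. The glucose transporter gene Slc2a3 averaged 101 ± 5.03 RPKM over Control libraries and Slc2a5, best known as a fructose transporter, 131 ± 5.98 (SD, n = 3), while Slc2a1, the common glucose transporter, was at 0.621 ± 0.0494. Over Middle libraries these were 104 ± 3.14, 134 ± 7.26 and 0.822 ± 0.0507 in the same order. The groups overlapped for Slc2a3 and Slc2a5. Slc2a1 was higher in every Middle library, on 87 to 166 reads, and was too low for the test. Bsg, which escorts lactate carriers to the cell surface, averaged 271 ± 5.75 RPKM over Control libraries and 302 ± 19.7 over Middle ones. Its Middle libraries lay higher without overlap, as 17.9% of all tested genes did, and its log2 fold change of 0.15 did not pass (adjusted p = 0.235, limma).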
